A study of Mus musculus with 6 samples.

Results

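STRAP eCLIP peaks that lie in introns within 200 nt of an exon were collected from the 4 deposited eCLIP peak lists of mouse embryos and embryoid bodies (EBs). A peak was a member when its summit, the position with the most reads, lay in a gene but in no exon of the Gencode M21 basic annotation (mm10), and at most 200 nt from the nearest exon of that gene. The rule gave 523 peaks in 384 genes, out of 5969 eCLIP peaks (8.76%) and 1325 intronic eCLIP peaks (39.5%). Of these, 510 lay in protein-coding genes and 25 had a second gene at the summit. The nearest exon was the downstream one in 428 peaks, which are called upstream of a 3' splice site (3'ss), and the upstream one in 95 peaks, which are called downstream of a 5' splice site (5'ss). In 9 of the 523 the nearest exon edge is not a splice site in the annotation, and they were counted on the side of that edge. The same rule gave 172 peaks in the 2 input libraries.

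The eCLIP libraries came from wild-type C57BL/6 material crosslinked with UV light and pulled down with an antibody against STRAP. They comprise 2 replicates from whole embryos at prenatal day 9.5, collected in pools of 7, and 2 replicates from 9-day-old EBs. The stage is that of the labels, where a figure legend of the study gives an earlier one. The EBs were grown from embryonic stem cells without LIF and then, per the labels, for 5 more days in N2B27 with bFGF, where the study's methods give a shorter time. Each tissue has 1 input library, made from the same kind of crosslinked lysate without the pull-down, and all groups share the genotype and the strain. The study's methods describe the 2 replicates of a tissue as independent samples, while the labels do not say which embryos or cultures each came from. With 1 input per tissue, the tests over peaks measure differences between libraries.

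An intron is removed after its ends have been recognised by small nuclear ribonucleoproteins (snRNPs). The U1 snRNP pairs with the 5'ss at the start of the intron, while the U2 auxiliary factor reads the pyrimidine-rich tract and the AG at the 3'ss and helps the U2 snRNP onto the branch point just before it. STRAP is a WD40-repeat protein known as a partner of the SMN complex, which assembles snRNPs. Reads from introns come from unspliced or partly spliced RNA, so peaks beside exons were asked for their side, their distance from the splice site and their dependence on how the caller placed the summit.

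For 12 of the most often recovered regions of overlapping members, the splice site nearest to a member summit is printed. Other members of such a region can lie at another junction, as in Dnajc7 and Rpl12. Each run gives 30 bases of GRCm38 on the strand of the gene, with the intron in lower case and the 10 exonic bases in capitals. Rsph3b and Rsph3a are near-identical genes on chromosome 17 whose printed junctions are the same letter for letter, so reads cannot be told apart between them there. The Rpl5 and Phip runs start with the exon because their nearest edge was a 5'ss.
Rsph3b 3'ss, chr17:6941747-6941776, minus strand: tagaattttctgttttacagAGTTGAAGAA
Rsph3a 3'ss, chr17:7952529-7952558, plus strand: tagaattttctgttttacagAGTTGAAGAA
Rpl12 3'ss, chr2:32963721-32963750, plus strand: ggccaccattcttactgtagGAACTATCAA
Actg1 3'ss, chr11:120348088-120348117, minus strand: cggggcttcttcctgcgcagATCGCAATGG
Dnajc7 3'ss, chr11:100584689-100584718, minus strand: tgctgcctttctccctccagAACACAAACA
Nucks1 3'ss, chr1:131924566-131924595, plus strand: ctttttcctttgccttatagTGAAGACTCA
Ncl 3'ss, chr1:86356184-86356213, minus strand: ttcattttttgtgtgtgcagGCTCAGAACC
Npm1 3'ss, chr11:33160912-33160941, minus strand: tgtaaaactcttatttttagGTTTCCCTAG
Hnrnpm 3'ss, chr17:33677431-33677460, minus strand: tttttttctcttgaattcagTGAAGAACGA
Qk 3'ss, chr17:10282972-10283001, minus strand: aaaatttttacttttaacagAAATTAGCAG
Rpl5 5'ss, chr5:107907268-107907297, plus strand: AGAAGAAGAGgtgggtggtttacaattctc
Phip 5'ss, chr9:82974907-82974936, minus strand: CGAGAAGGAGgtaagggcgcggcggcccgg
All 10 of the printed 3'ss end their intron in AG. Of the 18 bases before that AG, 16 were pyrimidines in Dnajc7 and Nucks1, and 11 in Qk.

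Depth was low in the pull-downs. The eCLIP libraries held 136935 to 228422 tags (reads left after duplicates were removed), against 6289516 and 6825190 in the inputs, and 370 of the 523 members (70.7%) rested on 5 tags or fewer. EB eCLIP-2 stood apart because its peaks were called with a fragment size of 76, against 200 in the other 3 eCLIP libraries and both inputs. The caller moves each tag along its strand in proportion to that size, here by 38 nt against 100 nt, a difference of 62 nt. As a check of the labels, 5 and 3 of 16 erythroid markers, all of them globin genes, had a peak in the embryo eCLIP libraries and 0 had one in the EB eCLIP libraries, against 0 for the embryo input and 1 (Hba-x) for that of EBs. Of 16 pluripotency markers, 6 and 10 had a peak in EB eCLIP-1 and eCLIP-2, Pou5f1 and Nanog included, and 0 had one in the embryo eCLIP libraries, against 2 (Esrrb and Klf2) for the embryo input and 0 for that of EBs. The eCLIP peaks thus followed the labels for both lists, and the few input peaks did not. None of 14 visceral endoderm and yolk sac markers had a peak in any library. In such mixed material, fewer cells of a type and less RNA per cell cannot be told apart.

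Peaks beside exons took a larger share of the eCLIP lists than of the input lists, except in EB eCLIP-2. Members were 185 of 1449 peaks in embryo eCLIP-1 (12.8%, with a 95% Clopper-Pearson interval of 11.1 to 14.6) and 143 of 1309 in embryo eCLIP-2 (10.9%, 9.29 to 12.7), against 93 of 2780 in the embryo input (3.35%, 2.71 to 4.08). In EBs they were 110 of 1256 peaks in eCLIP-1 (8.76%, 7.25 to 10.5) and 85 of 1955 in eCLIP-2 (4.35%, 3.49 to 5.35), against 79 of 1999 in the input (3.95%, 3.14 to 4.90). The intervals of the 3 libraries of fragment size 200 lay above those of the inputs, and that of EB eCLIP-2 overlapped its input. Fisher's exact test, two-sided, gave odds ratios of 4.23 (p = 7.16e-30) and 3.54 (p = 1.67e-20) in embryos and of 2.33 (p = 2.10e-08) in EB eCLIP-1, while EB eCLIP-2 gave 1.10 (p = 0.577). Peaks within a library are not independent replicates, and these tests compare libraries. The lists are also cut at unlike depth, as the smallest member had 3 or 4 tags in the eCLIP libraries and 10 tags in both inputs. What this does to the shares was not tested. Over the 6 libraries as units, the mean share was 9.20% ± 3.63 in eCLIP (SD, n = 4) and 3.65% in the 2 inputs, with an exact permutation p of 0.133 (two-sided), the smallest that 4 against 2 libraries can give. The embryo difference did not pass when only peaks with a score of at least 100 were kept (4.11% in eCLIP against 2.31% in the input, higher p of the 2 replicates 0.260 by Fisher's exact test). With the limit set at 100 nt, EB eCLIP-2 passed the test as well (3.79% against 2.20% in the EB input, Fisher's exact test, p = 0.00366).

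**Figure D1:**
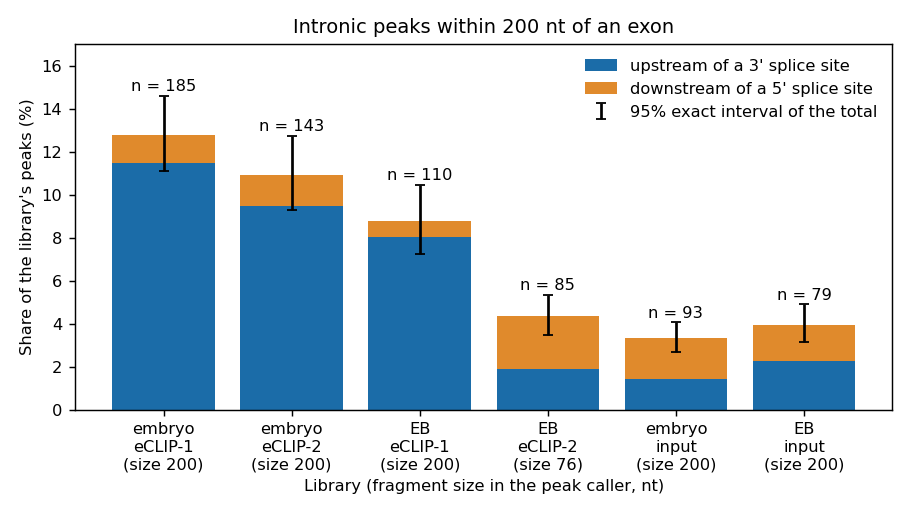
Share of each library's peaks (%) that were intronic and within 200 nt of an exon, split into peaks upstream of a 3' splice site (blue) and downstream of a 5' splice site (orange). Black bars are 95% exact intervals of the total, and the 3 eCLIP libraries of fragment size 200 stand between 8.76% and 12.8%, above EB eCLIP-2 at 4.35% and the inputs at 3.35% and 3.95%.

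The share of peaks in genes differed between eCLIP and input, so the members were also set against other bases. Of all intronic peaks, members made up 60.5% and 55.2% in the embryo eCLIP libraries, against 7.97% in the embryo input, and 32.2% and 20.3% in EB eCLIP-1 and eCLIP-2, against 9.78% in the EB input. All 4 odds ratios were above 1, from 17.7 in embryo eCLIP-1 to 2.36 in EB eCLIP-2 (Fisher's exact test, two-sided, p = 1.35e-81 and 5.62e-07). These tests too compare libraries over peaks. With libraries as units, the mean was 42.0% ± 19.0 in eCLIP (SD, n = 4) and 8.87% in the 2 inputs. The exact permutation p was 0.133 (two-sided), the smallest possible here. Among peaks in protein-coding genes, members made up 15.9% and 14.3% in embryo eCLIP, against 7.82% in its input. On that base EB eCLIP-1 had 11.6% and EB eCLIP-2 5.39%, against 7.97% in the EB input, so EB eCLIP-2 lay below its input (odds ratio 0.659, Fisher's exact test, p = 0.0129). Few members had a high score, which is 10 times the negative log10 of the caller's p. A score of 100 or more was reached by 9.19% and 11.9% of members in embryo eCLIP-1 and eCLIP-2, where 25.5% and 35.9% of all peaks reached it. In EB eCLIP-1 and eCLIP-2 it was reached by 4.55% and 15.3% of members, where 26.6% and 28.1% of all peaks reached it.

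The side of the exon divided the eCLIP libraries by fragment size. Upstream of a 3'ss lay 166 of 185 members in embryo eCLIP-1 (89.7%, interval 84.4 to 93.7) and 124 of 143 in embryo eCLIP-2 (86.7%, 80 to 91.8), against 40 of 93 in the embryo input (43.0%, 32.8 to 53.7). In EBs, it was 101 of 110 in eCLIP-1 (91.8%, 85.0 to 96.2) and 37 of 85 in eCLIP-2 (43.5%, 32.8 to 54.7), against 45 of 79 in the input (57%, 45.3 to 68.1). Against their inputs, the odds of lying upstream were 11.6 (p = 2.18e-16), 8.65 (p = 1.75e-12) and 8.48 (p = 1.97e-08) times as high in the 3 libraries of fragment size 200, and 0.582 times (p = 0.118) in EB eCLIP-2 (Fisher's exact test, two-sided). Over the 6 libraries as units, the mean upstream share was 77.9% ± 23.0 in eCLIP (SD, n = 4) and 50% in the 2 inputs (exact permutation p = 0.267, two-sided). EB eCLIP-2 minus EB eCLIP-1 was -48.3 percentage points in the upstream share (odds ratio 0.0687, Fisher's exact test, p = 9.25e-14) and -4.41 points in the share of peaks that were members (p = 6.75e-07 by the same test). In this pair the library and the fragment size cannot be told apart.

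The members sat close to the splice site. Upstream of a 3'ss, the median distance was 30 and 29.5 nt for embryo eCLIP-1 and eCLIP-2 and 26 and 15 nt for EB eCLIP-1 and eCLIP-2, against 106.5 nt in the embryo input and 99 nt in the EB input. The share within 100 nt was 98.2%, 96.0%, 96.0% and 91.9% in these eCLIP libraries, against 45% and 51.1% in the inputs. Peaks downstream of a 5'ss had medians of 39, 48, 32 and 16 nt in eCLIP, over 19, 19, 9 and 48 peaks, against 118 and 72.5 nt in the inputs, over 53 and 34 peaks. Member peaks had median widths of 280, 289 and 286 nt in the libraries of fragment size 200 and 131 nt in EB eCLIP-2, against 542 and 562 nt in the inputs. The called interval of a member reached into an exon of its gene in 496 of 523 cases (94.8%), while the summit itself did not. At the limit, Ddx42 in EB eCLIP-2 was a member at 189 nt, and Gm40645 in embryo eCLIP-1 at 206 nt and Rsph3a in EB eCLIP-2 at 211 nt fell just outside. Only 5 members lay at 181 to 200 nt and 4 eCLIP peaks at 201 to 220 nt.

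**Figure D2:**
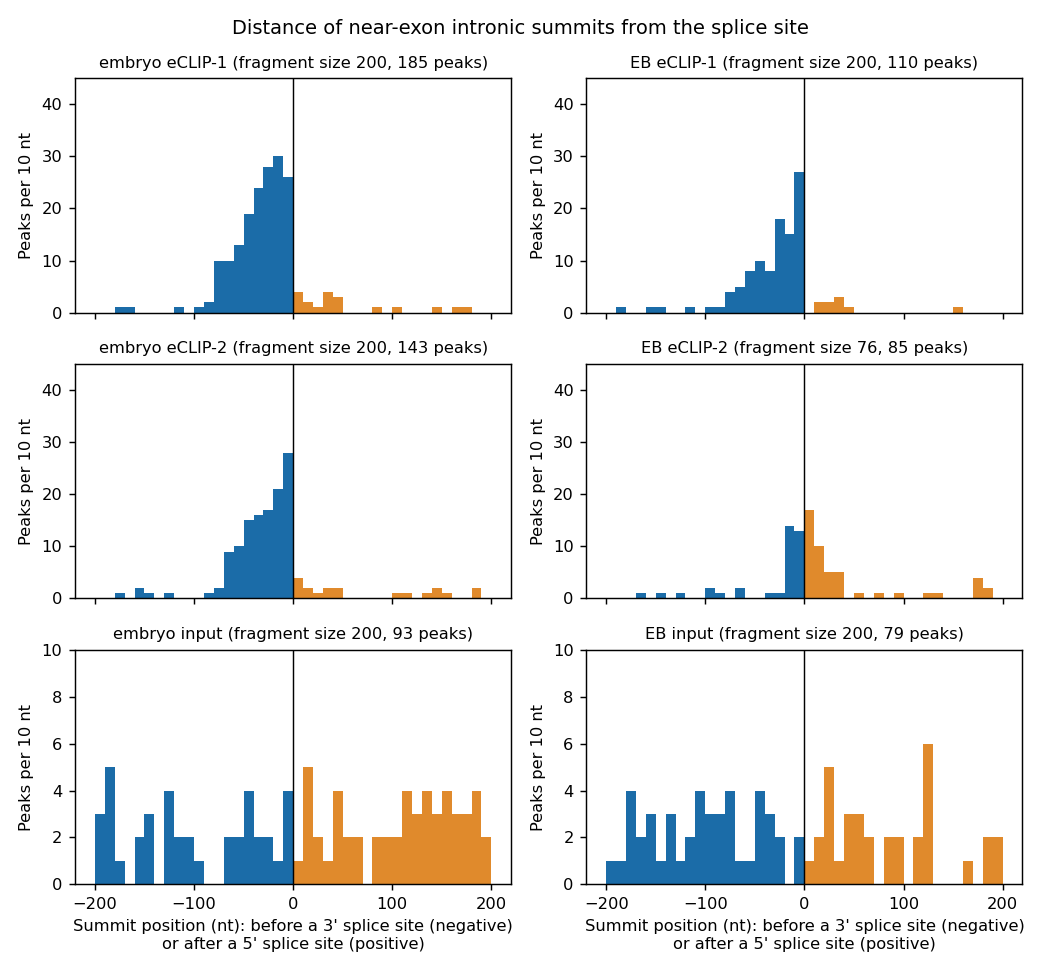
Number of near-exon intronic summits per 10 nt against their position, with distances before a 3' splice site as negative values (blue) and after a 5' splice site as positive values (orange), for embryos (left) and EBs (right). The axis of the inputs ends at 10 peaks and that of the eCLIP libraries at 45. Summits of the libraries of fragment size 200 pile up within 100 nt before the 3' splice site, those of EB eCLIP-2 lie mostly within 50 nt on both sides, and those of the inputs spread over the whole range.

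The distances were of the order of the difference in shift, so each summit called with a fragment size of 200 was moved by 62 nt toward the 3' end of its gene, which places it as a fragment size of 76 would if the tags run against the gene. After the move, 139 of the 166 upstream members of embryo eCLIP-1 (83.7%), 107 of 124 of embryo eCLIP-2 (86.3%) and 87 of 101 of EB eCLIP-1 (86.1%) had their summit in an exon, against 16 of 40 in the embryo input (40%) and 13 of 45 in the EB input (28.9%). Nearly all of these were coding exons, with 132, 103 and 79 cases in the 3 eCLIP libraries. Before the move, 76.5%, 78.2% and 77.2% of these upstream eCLIP members lay within 50 nt of the 3'ss, against 32.5% and 24.4% in the inputs. Where a summit lands after 62 nt depends on this starting distance, so the contrast with the inputs restates the difference in distance. Of the members downstream of a 5'ss in the same libraries, 2 of 19, 6 of 19 and 2 of 9 landed in an exon.

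**Figure D3:**
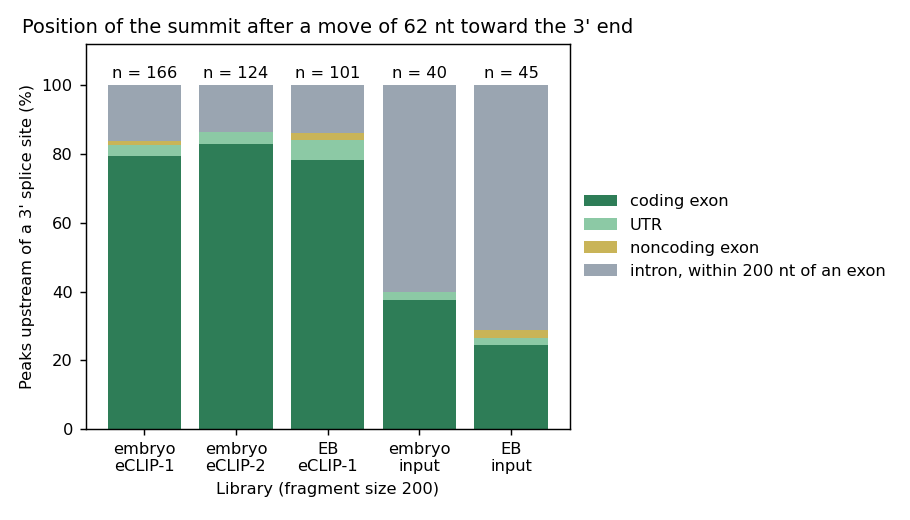
Position of the summit of peaks upstream of a 3' splice site (% of such peaks in each library) after a move of 62 nt toward the 3' end of the gene, for the 5 libraries called with fragment size 200. Between 83.7% and 86.3% of the eCLIP summits moved into an exon, against 40% and 28.9% of the input summits. The eCLIP summits started closer to the 3' splice site, and the contrast restates that difference in distance.

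Counted anew after the move, members were 83 of 1449 peaks in embryo eCLIP-1 (5.73%) and 56 of 1309 in embryo eCLIP-2 (4.28%), against 78 of 2780 in the embryo input (2.81%), and both replicates still exceeded it (odds ratios 2.10 and 1.55, Fisher's exact test, p = 5.76e-06 and 0.0182). In EBs the shares were 3.98% in eCLIP-1 and 4.35% in eCLIP-2, against 4.30% in the input, with p of 0.719 and 1 by the same test. The upstream share became 48.2%, 48.2% and 56.0% in the 3 eCLIP libraries of fragment size 200, against 55.1% and 47.7% in the embryo and EB inputs, and none of these 3 differences passed the test (Fisher's exact test, p = 0.431, 0.485 and 0.378). In the opposite direction, when the summits of EB eCLIP-2 were moved by 62 nt toward the 5' end, its members became 262 of 1955 peaks (13.4%), of which 229 (87.4%) lay upstream of a 3'ss, against 3.95% and 57% in the EB input (Fisher's exact test, p = 3.50e-27 and 2.34e-08). If the tags run against the gene, summits placed as for a fragment size of 200 gave an upstream share of 86.7% to 91.8% in the 4 eCLIP libraries. Summits placed as for 76 gave 43.5% to 56.0%. The upstream members of fragment size 200 had median distances of 30, 29.5 and 26 nt, less than the 62 nt moved. The moves therefore shift these shares by construction, and whether the fragment size sets the side was not tested.

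**Figure D4:**
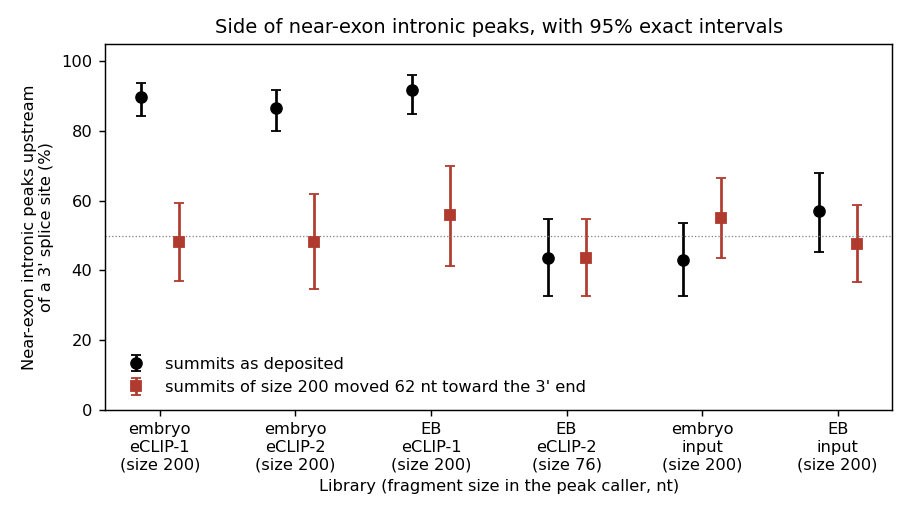
Share of near-exon intronic peaks that lay upstream of a 3' splice site (%), with 95% exact intervals, for summits as deposited (black circles) and after summits of fragment size 200 were moved by 62 nt toward the 3' end (red squares). The 3 eCLIP libraries of fragment size 200 lie at 86.7% to 91.8% as deposited and at 48.2% to 56.0% after the move, while EB eCLIP-2, which was not moved, stays at 43.5%.

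Summits were also set against each other where a region was called in EB eCLIP-2 as well. Of the 391 upstream members of the 3 libraries of fragment size 200, 74 (18.9%) overlapped a peak of EB eCLIP-2. The summit of that peak lay in an exon in 58 of the 74 (78.4%) and was itself a member in 10. It lay a median of 66 nt farther toward the 3' end of the gene (quartiles 30 and 98.5 nt). The 29 pairs of embryo eCLIP-1 had a median of 68 nt, the 23 of embryo eCLIP-2 of 52 nt and the 22 of EB eCLIP-1 of 88.5 nt. These pairs were chosen for a summit just before a 3'ss, and some of them ran the other way, such as those of EB eCLIP-1 in Ran (-106 nt) and Rsph3b (-121 nt). The 18 pairs whose member lay downstream of a 5'ss had a median of 62.5 nt, with quartiles of -5.75 and 97 nt. The strand of the tags was not tested, because the lists carry no strand.

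Between 23.8% and 26.6% of the members overlapped a peak of the other replicate by at least 1 bp, wherever the summit of that peak lay. A peak of the other replicate overlapped 44 of 185 members in embryo eCLIP-1 (23.8%, interval 17.8 to 30.6), beside 42.6% of all its peaks, and 38 of 143 in embryo eCLIP-2 (26.6%, 19.5 to 34.6), beside 47.2% of all. In EBs it overlapped 27 of 110 in eCLIP-1 (24.5%, 16.8 to 33.7), beside 51.8% of all, and 21 of 85 in eCLIP-2 (24.7%, 16.0 to 35.3), beside 36.8% of all. Fewer were overlapped by a peak that was itself a member. These were 24 of the 44 and 24 of the 38 in embryo eCLIP-1 and eCLIP-2, and 7 of the 27 and 7 of the 21 in EB eCLIP-1 and eCLIP-2. Overlapped members had medians of 6 to 7 tags in the 4 libraries, and those not overlapped 3 to 4. Peaks of the embryo input overlapped 10 members of eCLIP-1 (5.41%, beside 16% of all its peaks) and 7 of eCLIP-2 (4.90%, beside 18.3%). Peaks of the EB input overlapped 5 members of eCLIP-1 (4.55%, beside 16.7% of all its peaks) and 5 of eCLIP-2 (5.88%, beside 12.1%). These shares were not tested against each other, since members are part of all peaks.

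Merging overlapping members of the 4 eCLIP libraries gave 467 regions. Of these, 422 held a member of 1 library only, 34 of 2 libraries, 11 of 3 and 0 of all 4. An input peak of either tissue overlapped 19 regions (4.07%). Both embryo replicates held a member in 24 regions, 20 of them without a peak of the embryo input, and both EB replicates held one in 7 regions, 6 of them without a peak of the EB input. A median member had 3 to 5 tags per library.

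The member with the most tags lay in Gm15564, in a region on chromosome 16 from 35981401 to 35982002 that held a peak in all 6 libraries. Its peaks had 84 and 99 tags in embryo eCLIP-1 and eCLIP-2 and 55 and 61 tags in EB eCLIP-1 and eCLIP-2, against 78 tags in the embryo input and 98 tags in the EB input. The fold, which the caller computes against the background of the same library, was 26.7, 24.8, 29.3 and 72.2 in these eCLIP libraries and 22.9 and 22.8 in the inputs. Folds ran higher throughout EB eCLIP-2, with a median of 49.3 over all its peaks, against 27.8 to 30 in the other eCLIP libraries. Rsph3b and Rsph3a, which encode radial spoke head proteins of cilia, likewise held peaks in all 6 libraries. Rsph3b had 17, 16, 16 and 12 tags in the eCLIP libraries, against 13 and 11 tags in the embryo and EB inputs, and Rsph3a had 9, 21, 9 and 13 tags, against 11 and 11 tags. Their summits lay 146 to 280 nt before the 3'ss in the eCLIP libraries, and those of EB eCLIP-2, at 280 nt in Rsph3b and 211 nt in Rsph3a, were beyond the limit of 200 nt.

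Of the 11 regions held by 3 eCLIP libraries, 5 overlapped no input peak, among them those in Dnajc7, Nucks1, Dsn1 and Rpl5. Dnajc7, which encodes a co-chaperone of the heat shock protein system, had 11 and 7 tags in embryo eCLIP-1 and eCLIP-2 and 6 tags in EB eCLIP-1, with the summit of embryo eCLIP-1 6 nt before the junction of intron 10 printed above and those of the other libraries 40 and 30 nt before the 3'ss of intron 11. Nucks1, which encodes a nuclear DNA-binding protein, had 5, 6 and 5 tags in the same libraries, with summits 3, 74 and 7 nt before its 3'ss. Dsn1, which encodes a kinetochore protein, had 4, 7 and 7 tags in embryo eCLIP-2, EB eCLIP-1 and EB eCLIP-2. In its intron of 356 nt the summit lay 150 and 152 nt after the 5'ss in embryo eCLIP-2 and EB eCLIP-1, and 145 nt before the 3'ss in EB eCLIP-2. The summit of EB eCLIP-2 was thus 62 and 60 nt farther toward the 3' end, which changed its side. Rpl5, a protein of the large ribosomal subunit, had 10, 10 and 4 tags in embryo eCLIP-1, EB eCLIP-1 and EB eCLIP-2. Its summits lay 19, 20 and 14 nt after the 5'ss of its last intron, in the libraries of both fragment sizes.

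**Figure D5:**
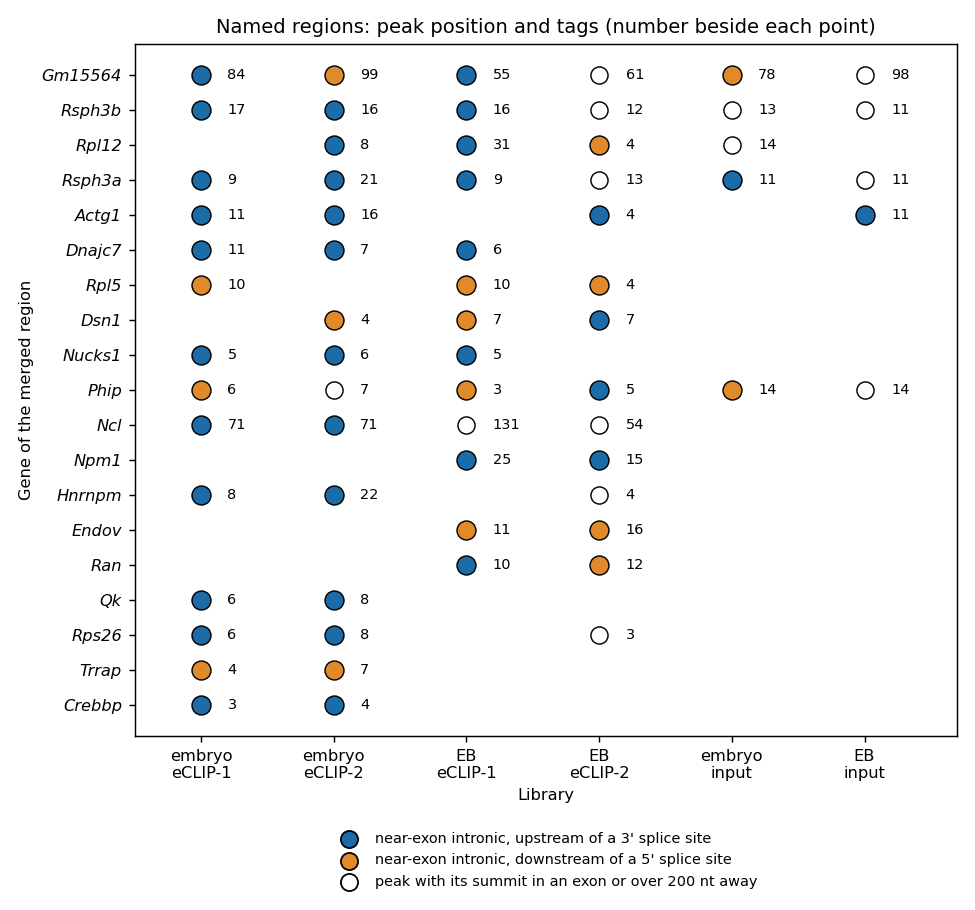
Position of the peak (point) and its tags (number beside it) in each library for the 19 regions named by rank or by fold with 1 gene at the summit, with eCLIP libraries left of the inputs. Filled points are near-exon intronic summits upstream of a 3' splice site (blue) or downstream of a 5' splice site (orange), open points are summits in an exon or over 200 nt from one, and no point means no peak. No region is filled in all 4 eCLIP libraries, and Gm15564, Rsph3b, Rsph3a and Phip have peaks in both inputs.

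In other regions the summit lay in the intron in some libraries and in an exon in others. The Ncl region (nucleolin, a nucleolar RNA-binding protein), at chr1:86356044-86357620, had 71 tags in embryo eCLIP-1 and 71 tags in embryo eCLIP-2, with summits 12 and 15 nt before the 3'ss of its intron 5. The peaks of EB eCLIP-1 and EB eCLIP-2 over it had 131 and 54 tags with their summits in a coding exon, and neither input had a peak there. Actg1, which encodes cytoplasmic actin gamma, had 11, 16 and 4 tags in embryo eCLIP-1, embryo eCLIP-2 and EB eCLIP-2, with summits 30, 24 and 15 nt before the 3'ss of intron 1, against 11 tags in the EB input at 83 nt and no peak in the embryo input. Phip, which encodes a chromatin-associated WD-repeat protein, had 6 tags in embryo eCLIP-1 and 3 tags in EB eCLIP-1 35 and 33 nt after its 5'ss. In embryo eCLIP-2 it had 7 tags in a coding exon and in EB eCLIP-2 5 tags before the next 3'ss, against 14 tags in each input. Rpl12, another protein of the large ribosomal subunit, had 8, 31 and 4 tags in embryo eCLIP-2, EB eCLIP-1 and EB eCLIP-2, against 14 tags in the embryo input with the summit in an exon. These Rpl12 members did not share a junction. The summit of EB eCLIP-1 lay 23 nt before the 3'ss of intron 5 printed above, and that of EB eCLIP-2 lay 10 nt after the 5'ss of intron 3.

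By fold, the leading embryo regions without an input peak were in Trrap, Hnrnpm, Qk, Rps26 and Crebbp. Hnrnpm encodes a splicing regulator that binds GU-rich RNA, and its intron 1 had 8 tags at 36.4-fold in embryo eCLIP-1 and 22 tags at 44.0-fold in embryo eCLIP-2, with summits 27 and 11 nt before the 3'ss. It held 6 members over both embryo libraries, in introns 1, 5, 6 and 7. All 6 were upstream of a 3'ss, as were 391 of the 438 members of fragment size 200 over all genes (89.3%). Qk, an RNA-binding protein that regulates splicing in glia and muscle, had 6 and 8 tags at 37.5-fold and 30.8-fold in embryo eCLIP-1 and eCLIP-2. Trrap, a scaffold of histone acetyltransferase complexes, had 4 and 7 tags at 40-fold and 50-fold in the same libraries, 142 and 115 nt after a 5'ss. Crebbp, a histone acetyltransferase, had 3 and 4 tags, and Rps26, of the small ribosomal subunit, 6 and 8 tags. In EBs the leading regions were in Dsn1, Endov, Rpl5, Npm1 and Ran. Npm1 (nucleophosmin, a nucleolar histone chaperone) had 25 tags at 22 nt before the 3'ss of intron 3 in EB eCLIP-1 and 15 tags at 3 nt in EB eCLIP-2, and it held 6 members over the 4 eCLIP libraries in introns 1, 3, 7 and 8. Endov, which encodes an endonuclease that cleaves RNA at inosine, had 11 tags in EB eCLIP-1 and 16 tags in EB eCLIP-2, 27 and 125 nt after an exon end that is not a splice site in the annotation. Ran, the GTPase of nuclear transport, had 10 and 12 tags in these libraries at 2 nt from opposite ends of its intron 1, which is 109 nt long.

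Of the 2450 genes with any eCLIP peak, 384 (15.7%) held a member, and 523 of their 5158 peaks were members (10.1%). Ribosomal protein genes held members most often among the lists, in 28 of the 53 with a peak (52.8%), and 45 of their 147 peaks were members (30.6%). Of the 45, 16 lay downstream of a 5'ss, 10 of them in EB eCLIP-2 and 6 in the libraries of fragment size 200. Rpl12, Rpl5 and Rpl35 held members in the most libraries, and those of Rpl35 had 3 to 5 tags. Genes of the spliceosome and splicing factors held members in 22 of 74 (29.7%), with 36 of 216 peaks (16.7%). Of these 36, 33 were upstream of a 3'ss. At fragment size 200 it was 30 of 32, beside 391 of 438 (89.3%) over all genes. The genes of this list with members are named here by libraries and tags. Sf3b2, a subunit of the U2 snRNP, had members with 6, 5 and 6 tags in embryo eCLIP-1, embryo eCLIP-2 and EB eCLIP-1 in introns 18, 15 and 10. Rbm39, a splicing factor related to the U2 auxiliary factor, had members in embryo eCLIP-2, EB eCLIP-1 and EB eCLIP-2 with 5, 5 and 3 tags.

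Members made up a share of the peaks closer to that over all genes in the other lists. Translation factors and mRNA-binding proteins held members in 14 of 38 genes (36.8%) and 26 of 191 peaks (13.6%), led by Npm1, Ncl and Eif2s2, the beta subunit of the initiation factor that brings the initiator tRNA, which held 5 members of 4 to 14 tags. The listed chromatin genes held members in 17 of 49 (34.7%) and 31 of 227 peaks (13.7%). Of the 31, 29 were upstream of a 3'ss, beside 391 of 438 (89.3%) over all genes at fragment size 200. In EB eCLIP-2 the list had 0 members. That 0 holds for the list of 58 genes only. Ash2l and H2afz, which are outside it, held members of 4 tags each in EB eCLIP-2. Among the listed genes, Ezh2 and Dnmt1, which methylate histone H3 and DNA, and Atrx, a chromatin remodeler, each held 4 members with 3 to 7 tags. Cytoskeletal genes held members in 12 of 39 (30.8%) and 17 of 147 peaks (11.6%), among them Actg1, Tuba1a and Macf1. Cell cycle genes held them in 6 of 20 (30%) and 8 of 63 peaks (12.7%), among them Top2a, Top2b and Mcm3. Of the 60 neural development genes listed, 23 had a peak and 2 of these (8.70%), Nedd4 and Ncam1, held members, in 3 of 62 peaks (4.84%). This share depends on the list. Ntn1, outside it, also held a member, and Map1b was counted with the cytoskeletal genes. Nedd4, a ubiquitin ligase, had 20 tags 1 nt after a 5'ss in embryo eCLIP-1 and 5 tags 2 nt before a 3'ss in embryo eCLIP-2. Of the markers, Hba-a1 (alpha globin) held 1 member in embryo eCLIP-1 and Dppa5a 1 member in EB eCLIP-1. No list was tested against the other genes.

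Most genes held 1 member over the 4 eCLIP libraries. There were 306 such genes, while 43 held 2, 19 held 3, 8 held 4, 6 held 5 and 2 held 6. The 6 members of Npm1 and the 6 of Hnrnpm lay upstream of a 3'ss without exception, as did the 5 of Eif2s2. Most members of any gene did so too, with 428 of 523 in all and 391 of 438 (89.3%) at fragment size 200. In Eif2s2 the same 3'ss of intron 5 was marked by 5 tags at 11 nt in embryo eCLIP-1 and 14 tags at 8 nt in EB eCLIP-1, and that of intron 3 by 4 tags at 20 nt in embryo eCLIP-2 and 9 tags at 37 nt in EB eCLIP-1. Top2a, which encodes a DNA topoisomerase of dividing cells, had 4 tags at 30 nt in embryo eCLIP-1 and 9 tags at 49 nt in embryo eCLIP-2 before the 3'ss of intron 2. These sites were thus called again in another library, though with few tags in each. The 4 members of Dnmt1, by contrast, lay in 4 different introns (11, 8 and 6 in embryo eCLIP-1 and 4 in embryo eCLIP-2), as did the 4 of Atrx (31, 30 and 24 in embryo eCLIP-1 and 11 in embryo eCLIP-2).

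The highest scores within a library went to few genes. In embryo eCLIP-1 and EB eCLIP-1 they were those of Gm15564 and Rsph3b, and in embryo eCLIP-2 those of Gm15564 and Rsph3a. In EB eCLIP-2 they were AC166748.2, with 28 tags at 127-fold and 182 nt after a 5'ss on chromosome 19, and Dsn1, with 7 tags at 115-fold. The median fold over all peaks of that library was 49.3. The strongest members of the inputs were in Zfp791 (55 tags from embryos and 40 from EBs, both 123 nt after a 5'ss), Gm10801 (269 and 284 tags), Gm15564 in the embryo input and Asmt in the EB input (55 tags).

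Length and splice site sequence were compared between the introns that held members and introns at large. Over the 4 eCLIP libraries, the median host intron of protein-coding genes was 1057.5 nt long (quartiles 358 and 2754 nt, n = 510), against 1272 nt in the inputs (n = 161), while all 30803 introns of the genes with an eCLIP peak had a median of 1324 nt. First introns held 14.9% of the eCLIP members and 20.5% of the input members, and last introns 12.5% and 8.07%, where each makes up 6.79% of all introns. The intron ended in AG at 418 of 419 3'ss with an eCLIP member. Of the 18 bases before AG, a median of 77.8% were pyrimidines (quartiles 66.7% and 83.3%), and the medians were 77.8% in the inputs and over all 30058 3'ss. A transcript in the annotation skipped the exon after the 3'ss in 2.39% of eCLIP members and 6.58% of input members, where the share over all sites was 6.10%. All 82 members downstream of an annotated 5'ss had GT there, and 30 of them (36.6%) had GTAAGT or GTGAGT, which pair well with the U1 RNA, against 21 of 80 (26.3%) in the inputs and 28.5% of all 5'ss. The intron held a gene for a snoRNA or miRNA in 15 of 510 eCLIP members (2.94%), 6 of 161 input members (3.73%) and 1.09% of all introns. Intron 5 of Ncl, for example, holds Snord82, which lay 56 and 53 nt from the summits of embryo eCLIP-1 and eCLIP-2, and the Rpl5 summits lay 48 to 54 nt from a snoRNA gene named Gm26387. Other members in introns with a snoRNA gene were in ribosomal protein genes (Rps20 and Rplp2) and in noncoding host genes (Zfas1 and Snhg8), with 4 to 10 tags each.

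Repeats and base composition were read from the 200 nt around each summit. Repeat-masked bases covered more than 50% of the window in 0.541% to 5.45% of the members of an eCLIP library, against 13.98% and 8.86% of the members of the embryo and EB inputs. Among intronic peaks over 200 nt from an exon, that share was 22.4% to 28.4% in the eCLIP libraries and 40.9% and 31.0% in the inputs. The median GC content of the member windows was 45% in the 3 libraries of fragment size 200 and 50% in EB eCLIP-2, against 52.0% and 53.5% in the inputs.

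Motifs of interest for STRAP were searched in the same windows, on the gene's strand only. Purine-rich hexamers, namely GAAGAA, along with GAAGAG, as well as GAGGAA, and finally GAGGAG, were counted as 1 motif. They stood in 38.4% and 42.7% of the members of embryo eCLIP-1 and eCLIP-2, against 31.2% of those of the embryo input. In EBs they stood in 38.2% and 36.5% of the members of eCLIP-1 and eCLIP-2, against 41.8% of those of the input. None of these 4 comparisons passed the test (two-sided exact test of Fisher, adjusted over 4 motifs by Benjamini-Hochberg, adjusted p = 0.234 to 0.653). Windows of the same length centred 30 nt before all 30058 3'ss of the genes held one of the hexamers in 35.2%, and upstream members of the 4 eCLIP libraries in 39.7%. GCAGCA stood in 7.06% to 10.3% of eCLIP members, against 5.38% and 2.53% of input members, and in 8.03% of the windows over all 3'ss. CTCCTCC stood in 1.82% to 5.59% of eCLIP members, against 8.60% and 8.86% of input members, and in 3.43% of all those windows. CTTCTTC stood in 1.82% to 2.80%, against 7.53% and 8.86%, and in 3.22% of all those windows. No adjusted p for these 3 motifs was under 0.05 either, the lowest being 0.0718 in EB eCLIP-1. A match is a run of letters and no measure of binding, and GAAGAA also stands in the exonic bases of the Rsph3b, Rsph3a, Hnrnpm and Rpl5 junctions printed above.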

How the data were processed

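STRAP eCLIP was done on E9.5 embryos and EBs, with 2 replicates and 1 input in each. Per the methods the authors demultiplexed with bcl2fastq 2.18.0.12, trimmed with cutadapt, aligned to mm10 with STAR 2.5.2b, allowing reads with several placements, and called peaks with MACS 1.4.2. The methods describe calls against the input and a fold threshold over it, while the deposited lists, 1 per library, name no control and were used as they are. The deposited lists give, for each peak, whole-number tag counts, the score (10 times the negative log10 of the caller's p) and the fold, a ratio of the tags to the local background of the same library. Per the file headers, the p cutoff was 1e-05, the band width 300, the effective genome size 1.87e+09, the range for the local background 10000 nt and the tag size 75, with 0 control libraries named. Reads with several placements can put one molecule at near-identical genes, and a call without a control marks abundant RNA too.

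Summits were placed on Gencode M21 basic in GRCm38 (the methods give an older Gencode release), and 10676 of 10676 peaks on assembled chromosomes ended inside them. The distance was taken to the nearest exon of the gene, with protein-coding and then longer genes preferred where several overlapped. Peaks have no strand, so the gene's was used. Shares carry exact Clopper-Pearson intervals, which cover counting error only, and Fisher's exact test (two-sided) set them against the input. Libraries were compared by an exact permutation test. The classification was tested on simulated data and recovered 1000 of 1000 positions. All of these lay in introns of at least 1000 nt of protein-coding genes with 1 transcript and no second gene there. Shorter introns, genes with several transcripts and overlapping genes were not tested. Python 3.11.15, numpy 2.4.6, scipy 1.17.1, pandas 2.3.3, pysam 0.24.0, statsmodels 0.14.6 and matplotlib 3.10.9 were used. Members and gene lists were chosen with earlier results of these data known.

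Named regions are the 12 held by the most eCLIP libraries and, per tissue, the 5 of highest mean fold in both replicates without an input peak. Named genes are the 2 of highest score per library, up to 3 per list, the 5 with the most members, the genes the study names for eCLIP, the 3 strongest input members per tissue and the 2 peaks on either side of the limit. Some genes under this rule are not reported here. Values named beside these were chosen after they were seen. Alternatives moved the summits, changed the limit to 100 or 300 nt, kept scores of at least 100 or folds above 5, kept summits in 1 gene or in protein-coding genes, left out peaks that touch an exon, changed what counts as shared, shortened the motif window to 100 nt, and left out each replicate.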

Additional observations from a re-analysis of the deposited data

How the results depend on the processing

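A share counted as passing where both replicates differed from the input in the same direction at p under 0.05, and an overlap as unchanged within 1 SD. By this, 66 of 103 alternative values were unchanged. That count includes values that could not change, such as moved summits of size 76 in embryos, where no library has that size. It also includes values that passed in neither setting, such as most motif shares. EB eCLIP-2 alone fell below its input at p under 0.05 for summits in 1 gene (5.34% against 7.71%, upstream share 42.0% against 60%) and for protein-coding genes (5.39% against 7.97%), with EB eCLIP-1 above it. Without peaks that touch an exon, EB eCLIP-2 lay above its input (13 of 1955 peaks, 0.665%, against 2 of 1999, 0.100%, Fisher's exact test, p = 0.00376). In embryos the member share, 11.8% in eCLIP against 3.35% in the input, lost its call for scores of at least 100 (4.11% against 2.31%) and without peaks that touch an exon (0.409% against 0.288%), where few members remain. Members with a score of at least 100 numbered 17 and 17 in embryo eCLIP-1 and eCLIP-2 and 5 and 13 in EB eCLIP-1 and eCLIP-2. The embryo and EB inputs had 12 and 8, so all shares at this score rest on few peaks. The embryo upstream share, 88.2% against 43.0%, was 48.2% against 55.1% with moved summits of fragment size 200, 73.5% against 25% for scores of at least 100 and 58.3% against 50% without peaks that touch an exon. In EBs the member share, 6.55% against 3.95%, was 4.16% against 4.30% with moved summits of size 200, 11.1% with moved summits of size 76, 6.07% against 2.20% at a limit of 100 nt and 1.93% against 2.09% for scores of at least 100. The EB upstream share, 67.7% against 57%, was 89.6% with moved summits of size 76. Without single replicates, the member share ranged from 10.9% to 12.8% in embryos and from 4.35% to 8.76% in EBs, and the upstream share from 86.7% to 89.7% and from 43.5% to 91.8%, so the EB values rested on which replicate was kept. The EB eCLIP-2 minus eCLIP-1 difference of -48.3 points was -12.5 (p = 0.212) and -4.41 (p = 0.282) with summits of size 200 or 76 moved, -26.2 for scores of at least 100 and -28.2 without peaks that touch an exon (Fisher's exact test). Overlap with the other replicate, 25.2% in embryos and 24.6% in EBs, was 50% and 65.4% for scores of at least 100, 20.9% and 13.4% for summits within 100 nt and 30.3% and 35.4% with moved summits, and 23.7% in EBs for an overlap of 50%. Overlap with the input, 5.15% and 5.21%, was 8.82% and 33.8%, 3.02% and 3.45%, and 8.68% and 7.94% under the first 3 of these. For scores of at least 100 the 2 EB replicates lay far apart, with an SD of 49.0 points around 65.4% and of 37.0 points around 33.8%. The purine-rich hexamers turned direction with windows of 100 nt (17.9% against 18.3% in embryos, 19.7% against 13.9% in EBs) and, in EBs, with moved summits (39.2% against 29.1%). In windows of 100 nt CTCCTCC in EBs was 0% against 7.59% (adjusted p = 0.0451, Fisher's exact test). For scores of at least 100, CTTCTTC was 2.94% against 0% in embryos and 3.85% against 0% in EBs, and CTCCTCC 7.69% against 0% in EBs. These shares rest on the few members counted above at that score. The moves shift summits by construction, and the cause of the other changes was not tested. No paired analysis was possible because replicate numbers are shared only between tissues and the tests run over peaks. With a median of 4 tags a member, presence in 1 library alone says little.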
